A study of Mus musculus with 9 samples.

Results

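The genes described here are 10 that serve the uptake of shed photoreceptor outer segments by the retinal pigment epithelium (RPE), taken by gene symbol from a table of 40202 genes. All 10 were present and passed the filter on low counts, which left 25273 genes for testing. The RPE came from wild-type mice, and its total RNA was sequenced in bulk in 9 stranded libraries. They comprised 3 libraries of young controls aged 9 months, 3 of old controls aged 24 months, and 3 of mice aged 24 months that had been given vutiglabridin, a synthetic analogue of the licorice compound glabridin, for 6 months. The labels name no vehicle for the controls, no sex, no batch, and no separate animal behind each library, so p-values measure the spread between these libraries, which may be technical. The comparisons ask how the genes differed with age, with treatment in old mice, and between treated old and young mice, and the 3 comparisons share libraries.

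The RPE is a single pigmented cell layer behind the retina, and each of its cells clears the outer segment tips that photoreceptors shed every day. A shed tip exposes phosphatidylserine, which bridging proteins tie to receptors on the RPE surface. The integrin αvβ5, made of the products of Itgav and Itgb5, binds the tip through its bridge MFG-E8, the product of Mfge8. MerTK, a receptor tyrosine kinase encoded by Mertk, drives engulfment and is activated by the bridges Gas6 and protein S, the product of Pros1. CD36, a scavenger receptor, also takes part in engulfment. Tubby and tubby-like protein 1, encoded by Tub and Tulp1, have been described as MerTK ligands in mouse, and Tulp1 is a gene of photoreceptors. Myosin VIIa, encoded by Myo7a, moves melanosomes and phagosomes in the RPE. Rats and mice without functional MerTK fail to engulf outer segments and lose their photoreceptors.

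Of the 10 genes, Mfge8 was the only one to pass the test with age, and it was 2.54-fold higher in old than in young controls, in a comparison where 1.48% of all genes tested were called higher. In treated mice compared with young controls, 4 of the 10 genes rose, namely Mfge8, Gas6, Cd36 and Itgb5, where 9.01% of all genes tested were called higher, and none of the 10 fell. Of these, Gas6 shares its counts with an overlapping gene, and the call of Itgb5 was lost when most single libraries were left out. None of the 10 passed the test between treated and old control mice, where 4.34% of all genes were called in either direction. Levels are CPM, counts scaled to a common library size, computed from the deposited counts with library sizes corrected by the TMM method (trimmed mean of M values). A gene is said to have risen or fallen where the Benjamini-Hochberg adjusted p over all genes tested was under 0.05 in edgeR's quasi-likelihood test.

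The stretches of DNA just upstream of the 4 genes that rose between young controls and treated mice are shown because these genes moved in the same direction in that comparison. Each is the 250 bases before a RefSeq gene start on GRCm38.p6, 5′ to 3′ on the gene's strand. Capitals mark the GC box GGGCGG on either strand, the core of the sites bound by Sp1-family factors.
Mfge8, chr7:79149061-79149310, minus strand: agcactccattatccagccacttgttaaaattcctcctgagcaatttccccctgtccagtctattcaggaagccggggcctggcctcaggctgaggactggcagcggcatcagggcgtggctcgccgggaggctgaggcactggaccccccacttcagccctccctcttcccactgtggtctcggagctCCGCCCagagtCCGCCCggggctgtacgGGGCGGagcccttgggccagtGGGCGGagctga
Gas6, chr8:13494536-13494785, minus strand: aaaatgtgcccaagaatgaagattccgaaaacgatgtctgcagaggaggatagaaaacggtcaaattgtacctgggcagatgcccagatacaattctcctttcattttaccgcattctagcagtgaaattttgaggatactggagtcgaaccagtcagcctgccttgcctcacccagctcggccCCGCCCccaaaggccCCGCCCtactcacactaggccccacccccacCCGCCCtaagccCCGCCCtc
Itgb5, chr16:33829415-33829664, plus strand: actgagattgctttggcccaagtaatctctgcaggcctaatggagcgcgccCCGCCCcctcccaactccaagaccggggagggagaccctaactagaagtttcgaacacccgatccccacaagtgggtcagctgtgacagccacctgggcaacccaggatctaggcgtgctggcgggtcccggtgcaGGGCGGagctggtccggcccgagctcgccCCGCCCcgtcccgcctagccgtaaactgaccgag
Cd36, chr5:17835897-17836146, minus strand: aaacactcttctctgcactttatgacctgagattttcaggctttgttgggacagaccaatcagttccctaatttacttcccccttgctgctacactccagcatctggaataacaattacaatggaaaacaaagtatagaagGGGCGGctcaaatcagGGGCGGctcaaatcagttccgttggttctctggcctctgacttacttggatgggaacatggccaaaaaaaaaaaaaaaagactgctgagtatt

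The windows of Mfge8 and Gas6 held 4 GC boxes each, that of Itgb5 held 3 and that of Cd36 held 2. The boxes of Mfge8 lay between 61 and 7 bases before the start, and those of Gas6 between 66 and 3 bases before it. RefSeq windows were found for 10 of 10 genes, 11 windows in all, with 2 for Myo7a. A GC box was present in 8 of the 11, compared with 32.7% of 32851 windows of the same length over all genes. The windows of Mertk, Pros1, Tub and Myo7a, genes that did not pass the test in any comparison, held GC boxes too, with 3 for Mertk. GC content was 65.2% for Mfge8, 54.8% for Gas6, 65.2% for Itgb5 and 43.2% for Cd36, compared with a median of 52.4% over all windows. The Cd36 start shown lies 53063 bases inside the outermost start of the gene, so it stands for 1 of its promoters. The E-box CACGTG, the AP-1 site TGACTCA and the homeobox site TAATCC, searched on both strands, were in none of the 11 windows. They were in 6.02%, 4.46% and 6.25% of all windows. The E-box CATGTG was in 1 window, of Myo7a, and in 12.3% of all windows, and the STAT site TTCNNNGAA was in 1 window, of Pros1, and in 7.02% of all. No motif searched contains another, and overlapping GC boxes, as found for Pros1 and Tub, were counted separately. A match is a description of the letters, not of a bound site.

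Total counts per library ranged from 44196290 to 56797891, with 28873 to 32523 genes detected. RPE identity was checked with 12 markers such as Rpe65, Rlbp1 and Best1, which all had a mean of at least 1 CPM. Their summed level was 17560 to 19690 CPM in young controls, 13510 to 16020 CPM in old controls and 10140 to 15840 CPM in treated mice, so the old libraries held a smaller share of RPE marker RNA. Markers of other cells were present as well. The summed level of 15 macrophage and microglia markers was 601.9 to 779.1 CPM in young controls, 1034 to 1149 CPM in old controls and 890.4 to 1274 CPM in treated mice. In these bulk libraries, fewer cells of a type and less RNA per cell cannot be told apart. In a multidimensional scaling plot, replicate 2 of the treated mice and replicate 1 of the young controls stood apart from the other libraries. In that treated library the summed red cell markers reached 5135 CPM, compared with 91.14 to 644.6 CPM elsewhere, and the summed markers of stratified epithelium reached 310.6 CPM, compared with 2.346 to 52.02 CPM elsewhere.

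**Figure D1:**
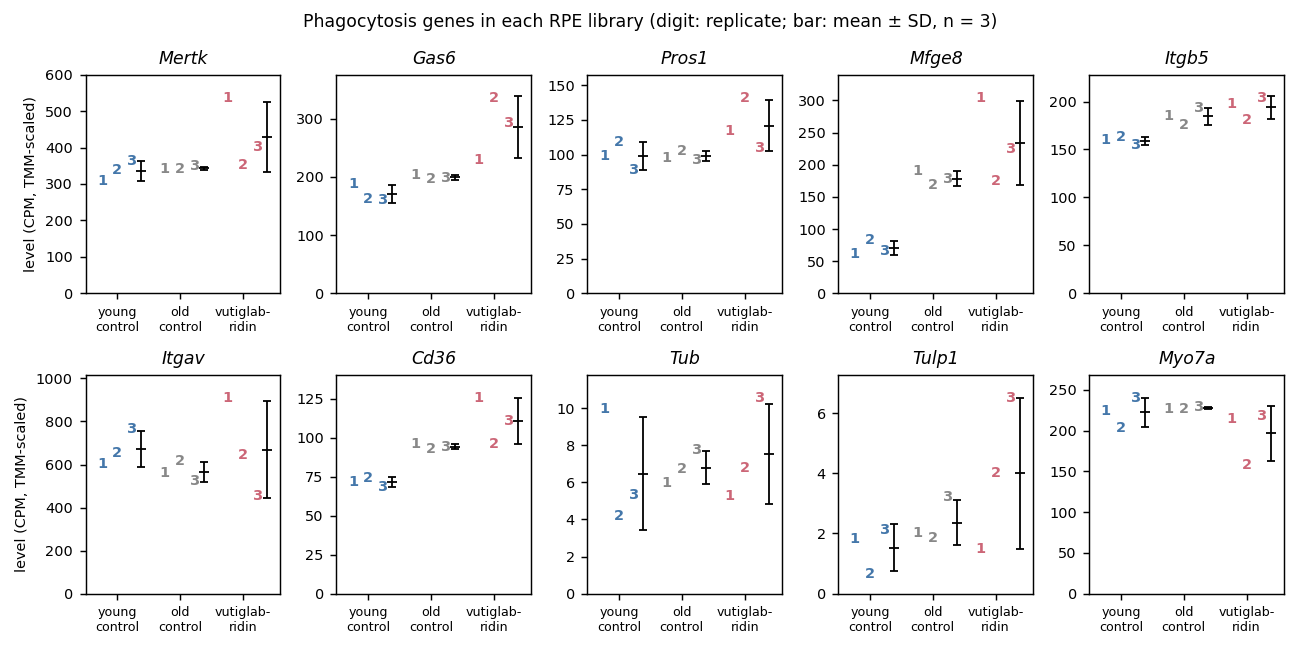
Level of each of the 10 genes (TMM-scaled CPM, linear axes from 0) in each library, with the digit giving the replicate and the bar the mean ± SD of 3 libraries. Mfge8 shows the widest gap between young controls, at 61.72 to 82.4 CPM, and old controls, at 167.8 to 190.2 CPM, while the treated libraries of Mertk, Mfge8 and Itgav spread more widely than the controls.

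Mertk, the engulfment receptor on chromosome 2 (128540835 to 128645082, plus strand, in the deposited coordinates), was measured at 308.5, 337.9 and 361.8 CPM in young controls. It was at 339.9, 339.8 and 348 CPM in old controls and at 535.8, 351.5 and 400.9 CPM in treated mice. The old controls lay inside the range of the young, and all 3 treated libraries lay above all old controls, with replicate 1 highest and replicate 2 just above them. The log2 fold change with age was 0.03 ± 0.14 (SE), with a 95% interval of -0.28 to 0.34 (edgeR, adjusted p = 0.976). Between treated and old control mice it was 0.33 ± 0.14, with an interval of 0.02 to 0.64, an unadjusted p of 0.0408 and an adjusted p of 0.184 in edgeR. Mertk did not pass the test in either comparison, nor between treated and young mice, where the log2 fold change was 0.35 ± 0.14 (edgeR, adjusted p = 0.104). Without treated replicate 1, the difference between treated and old mice was 0.13 on the log2 scale (edgeR, adjusted p = 0.436).

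Of the integrin αvβ5, the β subunit was called in 1 comparison and the α subunit in none. Itgb5, on chromosome 16 (33650035 to 33769708, plus strand), stood at 159.7, 162.8 and 154.6 CPM in young controls. It stood at 185.3, 175.6 and 193.2 CPM in old controls and at 197.5, 180.8 and 203.7 CPM in treated mice. All libraries from mice aged 24 months lay above all young libraries, and the old and treated groups overlapped. The log2 fold change was 0.22 ± 0.08 with age (edgeR, adjusted p = 0.302), 0.07 ± 0.08 between treated and old mice (edgeR, adjusted p = 0.61) and 0.29 ± 0.08 between treated and young mice (edgeR, adjusted p = 0.0361). The last of these is a rise of 1.22-fold with an interval of 1.08 to 1.38. That call rested on most libraries being present: leaving out 1 library at a time ended it in 7 of 9 cases, with adjusted p-values of up to 0.0924, and it held only without treated replicate 2 or 3. It also ended in 5 of 11 other alternatives, such as a fit of only the 2 groups compared (edgeR, adjusted p = 0.117).

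Itgav, on chromosome 2 (83551625 to 83637261, plus strand), stood at 600.2, 653.5 and 763.4 CPM in young controls. Its levels were 562.5, 614.1 and 521.6 CPM in old controls and 907.6, 645.2 and 455.2 CPM in treated mice. The treated libraries held both the highest and the lowest level of all 9, and no 2 groups were separate. The log2 fold change was -0.25 ± 0.21 with age (edgeR, adjusted p = 0.748), 0.24 ± 0.21 between treated and old mice (edgeR, adjusted p = 0.502) and -0.01 ± 0.21 between treated and young mice (edgeR, adjusted p = 0.985). The interval of the last, -0.47 to 0.46, allows a difference in either direction.

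Cd36, the scavenger receptor on chromosome 5 (17986688 to 18093957, minus strand), was at 71.73, 74.44 and 68.22 CPM in young controls. It was at 95.78, 92.71 and 94.37 CPM in old controls and at 125.3, 96.12 and 111 CPM in treated mice. The 3 groups did not overlap, with young controls lowest and treated mice highest. Cd36 rose 1.55-fold between young controls and treated mice, a log2 fold change of 0.63 ± 0.10 (edgeR, adjusted p = 0.00462), and this call held without any 1 library. With age the log2 fold change was 0.40 ± 0.10, with an interval of 0.18 to 0.62 that excluded 0, an unadjusted p of 0.00199 and an adjusted p of 0.0826 in edgeR. This age difference was called in 6 of 11 other alternatives and in 2 of the 9 cases that leave out 1 library. Among these were DESeq2 (adjusted p = 0.0178) and limma-voom (adjusted p = 0.00397), which called 949 and 2078 of all genes. Between treated and old mice the log2 fold change was 0.23 ± 0.10 (edgeR, adjusted p = 0.175), and 0.13 without treated replicate 1. Cd36 is also a gene of adipocytes, endothelium and macrophages. None of 6 adipocyte markers reached a mean of 1 CPM, and their sum was at most 1.351 CPM in any library. The summed endothelial markers were 984.6 to 1039 CPM in young controls, 861.9 to 887.5 CPM in old controls and 798.9 to 951.5 CPM in treated mice. The summed macrophage and microglia markers were higher in both groups aged 24 months, as given above. Between treated and young mice 12 of these 15 markers had a log2 fold change above 0, 7 rose and none fell. Cx3cr1 went the other way, at 13.06, 13.41 and 7.472 CPM in young controls and 2.093, 7.077 and 11.21 CPM in treated mice. The part of endothelium and macrophages in the level of Cd36 was not tested.

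Mfge8, the bridge to the integrin, lies on chromosome 7 (78783516 to 78798808, minus strand). Its level was 61.72, 82.4 and 66.29 CPM in young controls, 190.2, 167.8 and 177.2 CPM in old controls, and 303.7, 174.3 and 225.1 CPM in treated mice. Every library from mice aged 24 months was above every young library, with 167.8 CPM as the lowest of the former and 82.4 CPM as the highest of the latter. The mean was 70.1 ± 10.9 CPM (SD, n = 3) in young controls and 178 ± 11.2 CPM (SD, n = 3) in old controls. The log2 fold change with age was 1.35 ± 0.19, with an interval of 0.93 to 1.76 (edgeR, adjusted p = 0.00855), or 2.54-fold with an interval of 1.91 to 3.38. Between young controls and treated mice the rise was 3.34-fold, with an interval of 2.5 to 4.46 (edgeR, adjusted p = 0.00134). Between treated and old mice the log2 fold change was 0.39 ± 0.18, with an interval of -0.01 to 0.80 (edgeR, adjusted p = 0.213), and treated replicate 2 lay inside the range of the old controls. That difference was 0.16 without treated replicate 1 and 0.57 without treated replicate 2.

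The age difference of Mfge8 kept its size but not always its call when 1 library was left out. The log2 fold change ranged from 1.26 to 1.49 over the 9 cases. The call was lost without young control replicate 3, at 1.31 (edgeR, adjusted p = 0.0571), and without old control replicate 1, at 1.31 (edgeR, adjusted p = 0.0527). MFG-E8 is also made by macrophages and other cells. Of 15 macrophage and microglia markers, 7 rose with age, among them C1qb, Cd68 and Adgre1, and none fell. The median log2 fold change of the 15 was 0.83, compared with -0.01 over all genes tested. The part of these cells in the Mfge8 difference was not tested.

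Gas6, the MerTK ligand on chromosome 8 (13515374 to 13544535, minus strand), stood at 187.6, 161.3 and 160.7 CPM in young controls. It stood at 203.9, 196.1 and 198.3 CPM in old controls and at 228.3, 335.3 and 293.1 CPM in treated mice. The 3 groups did not overlap, with treated mice highest. On the log2 scale the fold change was 0.23 ± 0.13 with age (edgeR, adjusted p = 0.574) and 0.52 ± 0.13 between treated and old mice, with an interval of 0.23 to 0.81 and an adjusted p of 0.0514 in edgeR, close to the threshold. Between treated and young mice Gas6 rose 1.68-fold, a log2 fold change of 0.75 ± 0.13 (edgeR, adjusted p = 0.00678), and this call held without any 1 library.

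The Gas6 values carry a limit of the counting. Tmem255b, a gene on the opposite strand, overlaps Gas6 over 28061 bases, or 96.225% of its span. In every library the count of Tmem255b exceeded that of Gas6, by 35 to 1093 reads, or 0.424% to 8.19% of the Gas6 count. The fitted differences were close as well: Tmem255b had log2 fold changes of 0.24 with age (edgeR, adjusted p = 0.538), 0.53 between treated and old mice (edgeR, adjusted p = 0.0452) and 0.77 between treated and young mice (edgeR, adjusted p = 0.0057). Reads of the 2 genes cannot be told apart in these counts, so each Gas6 value is that of the shared locus.

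Pros1, the gene of protein S on chromosome 16 (62674670 to 62749709, plus strand), was at 98.8, 109 and 88.78 CPM in young controls and at 97.72, 102.6 and 96.39 CPM in old controls. In treated mice it was at 116.7, 140.7 and 104.9 CPM. The old controls lay inside the range of the young, and all treated libraries lay above all old controls. On the log2 scale the fold change with age was 0.00 ± 0.12, with an interval of -0.26 to 0.26 (edgeR, adjusted p = 1). It was 0.29 ± 0.12 both between treated and old mice (edgeR, adjusted p = 0.16) and between treated and young mice (edgeR, adjusted p = 0.108), and neither passed the test. Without treated replicate 2 these were 0.17 and 0.18.

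The tubby genes were low. Tub, on chromosome 7 (108610087 to 108633666, plus strand), had 9.946, 4.178 and 5.297 CPM in young controls, 5.943, 6.706 and 7.721 CPM in old controls, and 5.279, 6.755 and 10.53 CPM in treated mice. Ric3, on the opposite strand, overlaps Tub over 192 bases, or 0.814% of its span, and had 2076 to 3765 reads per library, so reads in that stretch cannot be told apart. Tulp1, on chromosome 17 (28570489 to 28584190, minus strand), had 1.817, 0.6377 and 2.122 CPM in young controls. It had 2.028, 1.852 and 3.212 CPM in old controls and 1.488, 4.01 and 6.493 CPM in treated mice, from 29 to 351 reads per library. The groups overlapped for both genes in all comparisons. Neither passed the test, and the largest of their 6 log2 fold changes was 1.39 ± 0.55 for Tulp1 between treated and young mice (edgeR, adjusted p = 0.111). The summed level of 13 rod markers was 365.4, 179.9 and 320.8 CPM in young controls, 267.6, 278 and 362.8 CPM in old controls, and 247.3, 575.8 and 754.3 CPM in treated mice. The library with the least rod marker RNA, young control replicate 2, also had the least Tulp1, and treated replicates 2 and 3 had the most of both. A further fit used the median log2 CPM of the rod markers, not their sum, as a covariate. The log2 fold change of Tulp1 was then -0.08 in place of 0.76 between treated and old mice. Between treated and young mice it was 0.61 in place of 1.39 (edgeR, adjusted p = 0.0964). The rod marker level was highest in treated replicates 2 and 3, so this fit cannot tell it apart from treatment. Tulp1 itself is a gene of photoreceptors, and the part of rods in its level was not tested.

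Myo7a, the motor gene on chromosome 7 (97700261 to 97768730, minus strand), was at 224, 203.2 and 239.6 CPM in young controls. It was at 226.9, 226.9 and 228.8 CPM in old controls and at 214.1, 157.4 and 218.1 CPM in treated mice. It was the only one of the 10 genes with all treated libraries below all old controls, and treated replicate 2 was the lowest of all 9 libraries. On the log2 scale the fold change was 0.03 ± 0.12 with age (edgeR, adjusted p = 0.962), -0.21 ± 0.12 between treated and old mice (edgeR, adjusted p = 0.311) and -0.18 ± 0.12 between treated and young mice (edgeR, adjusted p = 0.336). None of these passed the test.

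**Figure D2:**
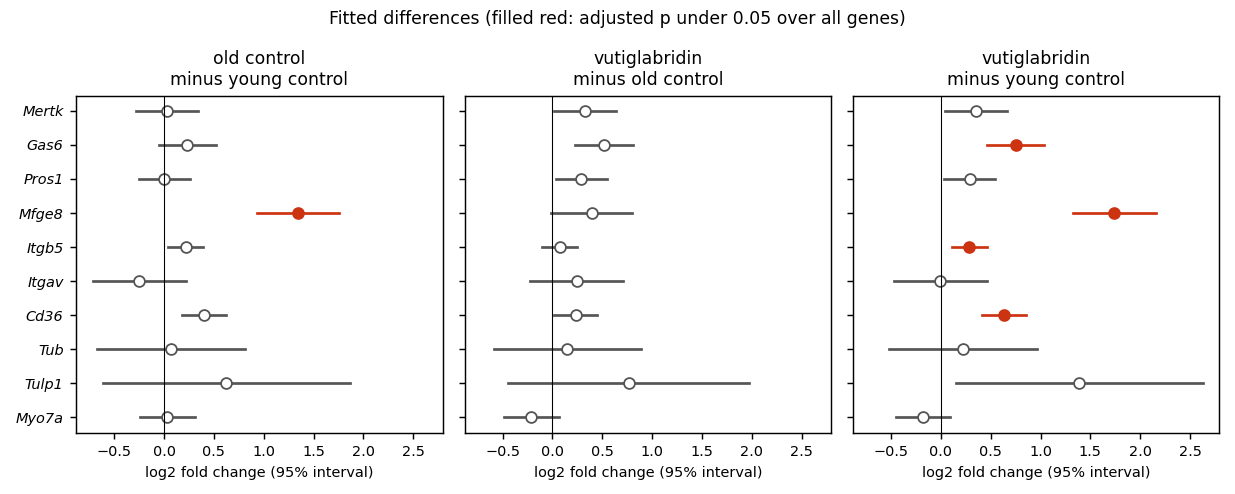
Fitted log2 fold change of each of the 10 genes in the 3 comparisons, with lines for the 95% interval and filled red points for genes with an adjusted p under 0.05. Mfge8 alone is filled for old minus young controls, none is filled for vutiglabridin minus old controls, and Mfge8, Gas6, Cd36 and Itgb5 are filled for vutiglabridin minus young controls.

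Counted together, 1 of the 10 genes was called higher with age, where 1.48% of all genes tested were called higher and 0.202% lower. Treated and old mice gave no called member in edgeR, where 2.37% of all genes were called higher and 1.97% lower, or 4.34% in all. At an unadjusted p under 0.05 there were 4, namely Mertk, Gas6, Pros1 and Cd36, in a comparison where 24.7% of all genes reached that level. DESeq2 called 1 of the 10 there and 3102 genes in all, and limma-voom called 2 of the 10 and 2709 in all. Between treated and young mice 4 were called higher, where 9.01% of all genes were called higher and 7.69% lower. Unadjusted p-values under 0.05 were found for 7 of the 10 there, compared with 34.2% of all genes, and for 3 of the 10 with age, compared with 11.7%. The median log2 fold change of the 10 was 0.14 with age, 0.27 between treated and old mice and 0.32 between treated and young mice, and that of all genes tested was -0.01 in each.

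Separation of the groups was counted as well. With age, 4 of the 10 genes had all old controls above all young controls, compared with 13.2% of all genes, and none had them below, compared with 12.1%. The 4 were Mfge8, Cd36, Gas6 and Itgb5. Between treated and old mice, Mertk, Gas6, Pros1 and Cd36 were higher without overlap, compared with 14.7% of all genes, and Myo7a was lower, compared with 17.5%. Between treated and young mice 4 genes were higher without overlap, compared with 15.9%, and none was lower, compared with 17.3%.

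Within the treated group the 10 genes were not highest in the same library. Mertk, Mfge8, Itgav and Cd36 were highest in replicate 1, Gas6 and Pros1 in replicate 2, and Itgb5, Tub, Tulp1 and Myo7a in replicate 3. Replicate 2, which stood apart from the other libraries, was the lowest of the 3 for Mertk, Mfge8, Itgb5, Cd36 and Myo7a. The old controls were closely spaced by comparison: Mertk had an SD of 4.70 CPM there and 95.4 CPM in treated mice, both with n = 3.

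The share of RPE marker RNA differed between the groups, so each gene was also expressed as a percentage of the summed level of the 12 RPE markers. Of those markers Pmel fell with age and none rose, and their median on the log2 scale was -0.29. None of the 12 passed the test between treated and old mice, and the median was -0.28. Between treated and young mice Rlbp1, Lrat, Rrh, Ttr, Pmel and Slc16a8 fell, Best1 rose, and the median was -0.63. On the relative scale Mertk was at 1.57%, 1.92% and 1.99% in young controls, 2.34%, 2.12% and 2.58% in old controls, and 3.38%, 3.47% and 3.73% in treated mice. The 3 groups were separate. Set against the mean, the spread between treated libraries was narrower than in CPM, while that of young and of old controls was wider. In old controls the SD was 4.70 CPM at a mean of 343 CPM, and 0.227 at a mean of 2.35%. Mfge8 was at 0.313%, 0.469% and 0.365%, then at 1.31%, 1.05% and 1.31%, then at 1.92%, 1.72% and 2.1% in the same order of groups, again separate. How many of all genes were separate on this relative scale was not counted, and the summed RPE markers it divides by were themselves lower in old controls and treated mice than in young controls. Myo7a, which was lower in treated than in old mice in CPM, was at 1.56% ± 0.139 in old controls and 1.64% ± 0.349 in treated mice (SD, n = 3), and these overlapped.

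A further fit was scaled to the median log2 CPM of the RPE markers, not to their sum. It moved the median of all genes on the log2 scale by 0.26 with age. The shift was 0.27 between treated and old mice and 0.53 between treated and young mice. Changes in this fit are read against those shifts. In that fit the log2 fold change between treated and old mice was 0.56 for Mertk (edgeR, adjusted p = 0.0294), 0.82 for Gas6 (edgeR, adjusted p = 0.0406) and 0.61 for Mfge8 (edgeR, adjusted p = 0.0323). With age it was 1.62 for Mfge8 (edgeR, adjusted p = 7.04e-05) and 0.66 for Cd36 (edgeR, adjusted p = 0.017). The scaling turned most calls over all genes upward: 99.1%, 94.8% and 98.8% of called genes were higher in the 3 comparisons, compared with 88%, 54.6% and 54% under TMM. With library totals alone, 39% of called genes were higher between treated and old mice.

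**Figure D3:**
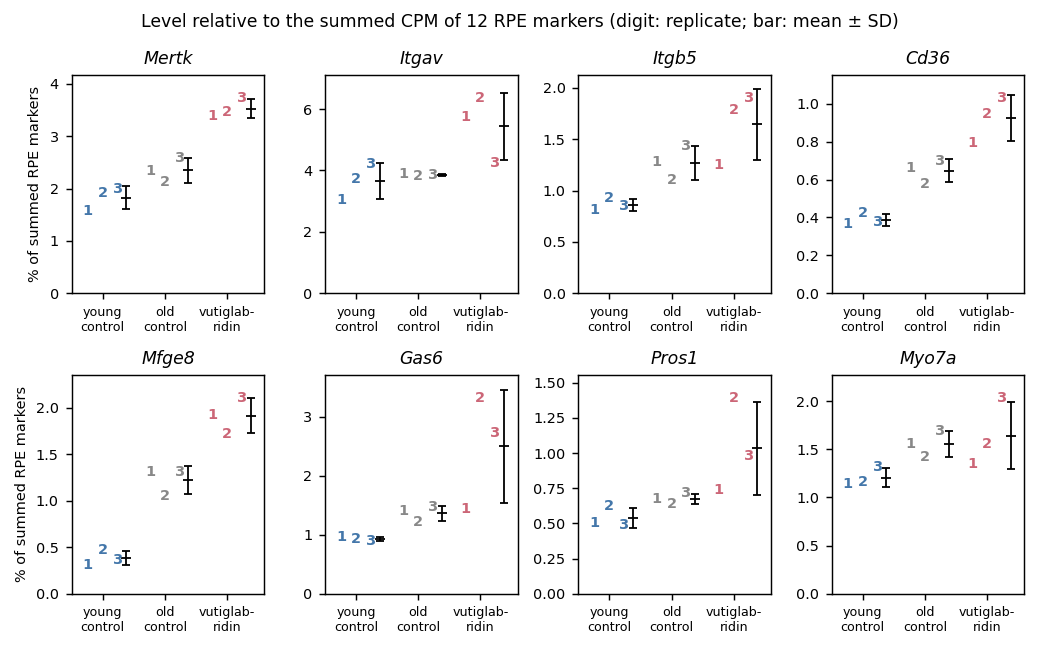
Level of 8 of the genes as a percentage of the summed CPM of 12 RPE markers in each library, with the digit giving the replicate and the bar the mean ± SD of 3 libraries. Mertk, Mfge8, Pros1 and Cd36 were in separate ranges in the 3 groups, with treated mice highest. The share of all genes with separate ranges on this scale was not counted.

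To compare levels between genes, the deposited FPKM values were used, whose length term is the full gene span with its introns. In young controls Itgav was highest at 7.82 ± 0.916 FPKM (SD, n = 3), followed by Gas6 at 5.81, Mfge8 at 4.58, Myo7a at 3.23 and Mertk at 3.21, with overlapping ranges only for the last pair. Itgb5 at 1.33 and Pros1 at 1.31 FPKM overlapped each other, and below them came Cd36 at 0.664, Tub at 0.274 and Tulp1 at 0.111 FPKM. In old controls Mfge8 was highest at 11.9 ± 0.75 FPKM, above Gas6 at 6.98 and Itgav at 6.75, which overlapped. In treated mice Mfge8 was at 15.0 ± 3.77 FPKM, and its range overlapped that of Gas6 at 9.64, as did the range of Gas6 with that of Itgav at 7.61. Mertk at 4.03 FPKM was above Myo7a at 2.82 FPKM in treated mice without overlap, while the 2 overlapped in young and old controls.

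The order differed with the length used. The sources used here do not state whether reads in introns were counted. However, the deposited table gives 1 span per gene for 40200 genes, with a length equal to that span. Tmem255b also had more reads than Gas6 in every library, as given above. Counts over whole spans hold reads in introns, and the exon scale then divides them by exon length alone. Per kilobase of GENCODE exons on GRCm38, Mfge8 was at 33.0 CPM per kilobase in young controls, 83.9 in old controls and 110 in treated mice, ranks 5, 1 and 2 of the 10. Mertk was at 78.1, 79.6 and 99.8 CPM per kilobase in the same order, ranks 2, 3 and 3. On both scales the mean of Mfge8 was below that of Itgav in young controls and above it in old controls. On the exon scale the old control means were close, at 83.9 CPM per kilobase for Mfge8 and 80.3 for Itgav. The ranges of their libraries were not compared on that scale.

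**Figure D4:**
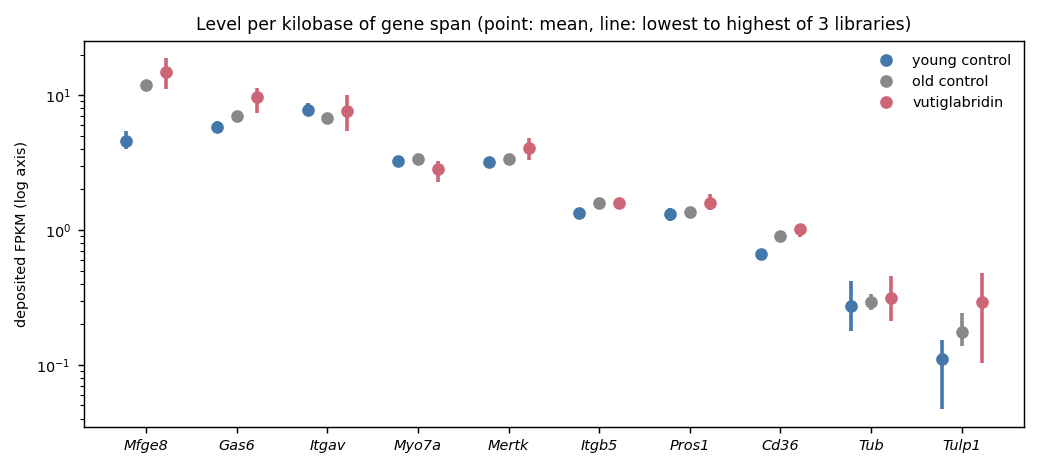
Deposited FPKM (log axis) of each of the 10 genes, with the point at the mean and the line from the lowest to the highest of 3 libraries, ordered by the mean in old controls. Mfge8 rises from 4.58 FPKM in young controls to 11.9 FPKM in old controls, and Tub and Tulp1 are at most 0.481 FPKM in any library.

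Genes that act beside these 10 were described through 6 lists of 62 genes, all tested. With age 3 of them rose and none fell, which is 4.84% of the lists, compared with 1.68% of all genes in either direction, and their median log2 fold change was 0.07. Relative to old controls, 4 rose in treated mice and 2 fell, or 9.68%, compared with 4.34%, with a median of 0.05. Relative to young controls, 15 rose and 5 fell in treated mice, or 32.3%, compared with 16.7%, with a median of 0.16.

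Among 6 other integrin subunits, Itgb2, the β2 chain of leukocyte integrins, rose with age from 31 to 69.1 CPM, a log2 fold change of 1.16 ± 0.14 (edgeR, adjusted p = 0.00513). Its 3 young libraries were at 26.64 to 39.47 CPM and its 3 old controls at 65.81 to 71.71 CPM, and the call held without any 1 library. Itgb3, which pairs with αv in place of β5, rose in treated compared with old mice from 17 to 31.8 CPM, a log2 fold change of 0.90 ± 0.16 (edgeR, adjusted p = 0.0217). Its levels were 10.6, 11.46 and 11.36 CPM in young controls, 17.85, 18.01 and 15.26 CPM in old controls and 27.16, 40.87 and 27.36 CPM in treated mice, in 3 separate ranges. The share of all genes with 3 separate ranges was not counted. Itga5, the α chain of a fibronectin receptor, rose from 19.9 to 33.8 CPM in the same comparison (edgeR, adjusted p = 0.0325). Itgb6, another partner of αv, fell from 19.5 to 11.5 CPM (edgeR, adjusted p = 0.0301). These 4 subunits were all called between treated and young mice, with Itgb3 2.85-fold higher (edgeR, adjusted p = 0.00109), Itgb2 2.21-fold higher, Itga5 2.02-fold higher and Itgb6 at 11.5 compared with 18.6 CPM. Itga5 lost its call between treated and old mice in 7 of the 9 cases that leave out 1 library, Itgb6 in 5 and Itgb3 in 3, with adjusted p-values of up to 0.159, 0.144 and 0.11 in edgeR. Without young control replicate 1, Itgb6 also lost its call between treated and young mice, at an adjusted p of 0.0526 in edgeR.

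The list of galectin-3, the sheddases and the other tubby-like genes had 6 members. Lgals3, the gene of galectin-3, a lectin described as a further MerTK ligand, rose with age from 87 to 166 CPM, a log2 fold change of 0.93 ± 0.15 (edgeR, adjusted p = 0.0116), and stood at 207 CPM in treated mice. Its libraries were at 87.79, 103.8 and 69.3 CPM in young controls, 170.6, 164.1 and 163.3 CPM in old controls and 232, 213.1 and 175.3 CPM in treated mice, without overlap. How common such separation was over all genes was not counted. Adam9, a sheddase, rose from 99.5 to 153 CPM between old controls and treated mice, 0.62 ± 0.15 on the log2 scale (edgeR, adjusted p = 0.0458). That call was lost in 8 of the 9 cases that leave out 1 library, with adjusted p-values of up to 0.174, and held without treated replicate 3. When treated mice were compared with young controls, Lgals3, Adam9 and Tulp4 rose, the last from 330 to 394 CPM (edgeR, adjusted p = 0.0449). Adam9 lost its call there without young control replicate 1 (edgeR, adjusted p = 0.0514), with only the 2 groups compared (edgeR, adjusted p = 0.059) and without both libraries that stand apart (edgeR, adjusted p = 0.0921). Tulp4 lost it in 8 of the 9 cases that leave out 1 library.

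Of 16 genes of the uptake machinery none was called with age, at a median log2 fold change of -0.02. When treated mice were compared with old controls, Myh9, the heavy chain of a non-muscle myosin II, rose from 344 to 463 CPM (edgeR, adjusted p = 0.0279) and Elmo2, an engulfment adaptor of Rac activation, fell from 74.4 to 53 CPM (edgeR, adjusted p = 0.0314). Both lost these calls in 4 of the 9 cases that leave out 1 library. For treated and young mice, Anxa2, a phosphatidylserine- and actin-associated annexin, rose from 82.4 to 144 CPM (edgeR, adjusted p = 0.0213), and Myh9 rose from 292 to 463 CPM (edgeR, adjusted p = 0.00233). In that comparison Elmo2 fell, and Gulp1, an engulfment adaptor, fell from 668 to 446 CPM (edgeR, adjusted p = 0.042). Anxa2 lost its call without any 1 young library, Elmo2 in 7 of 9 cases and Gulp1 in 6 of 9, while Myh9 kept its call in all 9. The gene of smallest p with age was Myh9, at 0.23 on the log2 scale.

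Of 12 other clearance receptors none was called with age or between treated and old mice. Tyro3 and Axl, the other TAM receptor kinases, did not pass the test in any comparison: Axl was at 133, 146 and 154 CPM and Tyro3 at 30.9, 34.8 and 33.3 CPM in young controls, old controls and treated mice. Adgrb1, a phosphatidylserine receptor, had the smallest p with age, at 1.54 and 3.82 CPM (edgeR, adjusted p = 0.216). Scarb1, a scavenger receptor for lipoproteins, had the smallest p between treated and old mice, at 59.2 and 71.2 CPM (edgeR, adjusted p = 0.129). In treated mice compared with young controls, Scarb1 rose 1.31-fold (edgeR, adjusted p = 0.0257). Timd4, a phosphatidylserine receptor of macrophages, passed the test too, from 0.184 to 0.905 CPM (edgeR, adjusted p = 0.04), with overlapping groups. Scarb1 lost its call in 4 of the 9 cases that leave out 1 library and Timd4 in 7.

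Of 7 genes of organelle motors and their adaptors none was called with age or between treated and old mice. The smallest p-values belonged to Rab7, a late endosomal GTPase, at 107 and 126 CPM with age (edgeR, adjusted p = 0.553) and to Rab27a, the GTPase that links melanosomes to myosin VIIa in the RPE, at 212 and 158 CPM in old and treated mice (edgeR, adjusted p = 0.0737). Relative to young controls, Rab7 in treated mice rose from 107 to 144 CPM (edgeR, adjusted p = 0.0463) and Rab27a fell from 214 to 158 CPM (edgeR, adjusted p = 0.0376). These calls were lost in 8 and 7 of the 9 cases that leave out 1 library.

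Among 15 genes of phagosome processing, Ctss, a lysosomal cysteine protease of RPE and macrophages, rose with age from 310 to 756 CPM, a log2 fold change of 1.29 ± 0.20 (edgeR, adjusted p = 0.012). Its young libraries were at 289.2, 419.3 and 222.5 CPM and its old controls at 781.4, 765.4 and 721.7 CPM, with treated mice at 759, 756.1 and 604 CPM. For treated and old mice, none was called, and the smallest p was that of Uvrag, an autophagy gene, at 193 and 238 CPM (edgeR, adjusted p = 0.0771). When treated mice were compared with young controls, 4 rose and 1 fell. Ctss rose 2.28-fold (edgeR, adjusted p = 0.00622), Ctsb, the gene of cathepsin B, rose 1.6-fold (edgeR, adjusted p = 0.0112), Uvrag rose 1.28-fold (edgeR, adjusted p = 0.0275) and Cst3, the gene of the protease inhibitor cystatin C, fell from 1370 to 1010 CPM (edgeR, adjusted p = 0.0443). Ctss and Ctsb kept these calls without any 1 library, Uvrag lost its call in 4 of 9 cases and Cst3 in 8 of 9.

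Itgb2, Lgals3 and Ctss are also expressed by macrophages, and 7 of 15 macrophage and microglia markers rose with age, as given above. Of 10 lymphocyte markers, Cd3e, Cd3g, Cd8a and Nkg7 rose with age and none fell. The summed level of the 10 was 11.5 to 13.0 CPM in young controls, 18.1 to 27.7 CPM in old controls and 12.7 to 16.2 CPM in treated mice. Between treated and old mice Cd79a, Ms4a1, Ighm and Gzma fell and none rose. Between treated and young mice Cd3e, Cd3g, Cd8a and Nkg7 rose, while Ms4a1 and Ighm fell. Itgb2 is also a gene of lymphocytes. The part of these cells in the 3 rises was not tested. Some calls were lost when 1 library was left out. With age, Lgals3 and Ctss lost their calls without young control replicate 1 or without any 1 old control. Adjusted p-values there were up to 0.0672 and 0.0661 in edgeR, and log2 fold changes were 0.92 to 0.95 and 1.24 to 1.32. Calls over all genes fell from 424 to 201 without that young library. They fell to 73, 148 and 132 without old control replicates 1, 2 and 3. For treated compared with old mice, leaving out any 1 old control left none of the 62 genes called. Over all genes, 35, 25 and 63 were called there without old control replicates 1, 2 and 3, compared with 1098 with all libraries. Scaled to the RPE markers, the differences of Elmo2, Rab27a and Cst3 between treated and young mice turned direction, to 0.13, 0.06 and 0.06 on the log2 scale.

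**Figure D5:**
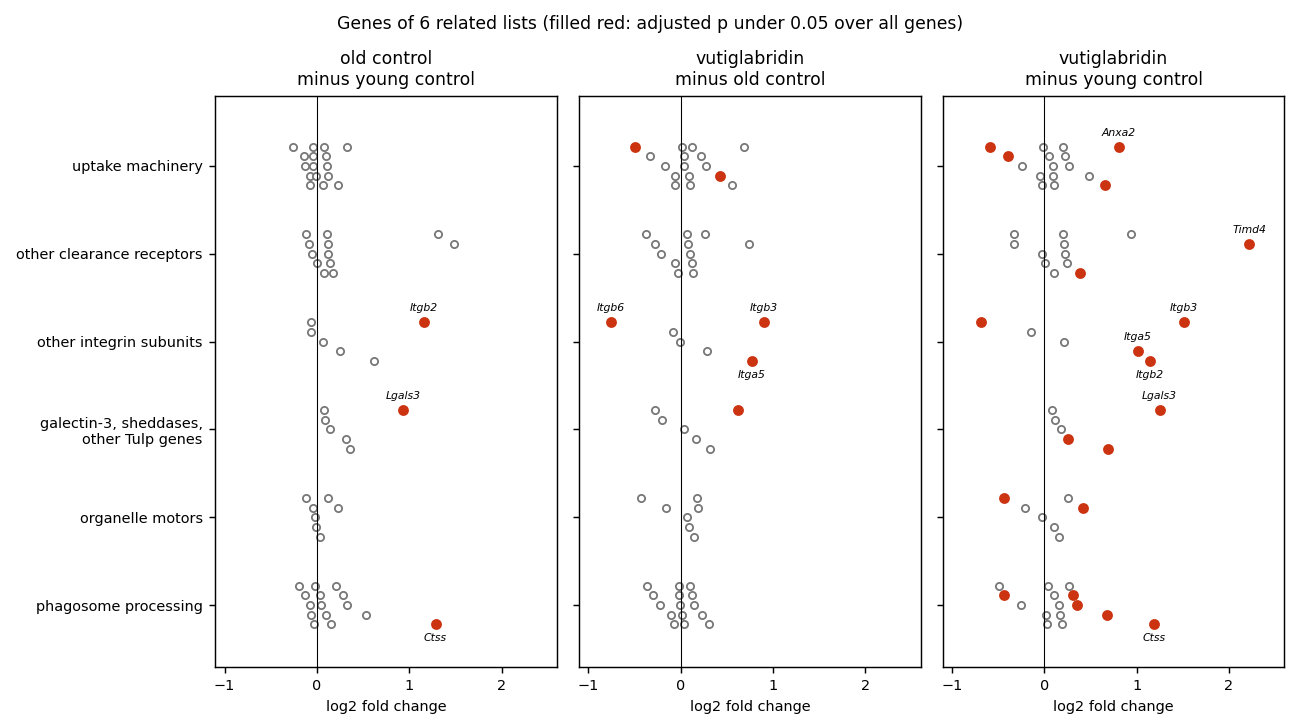
Log2 fold change of 62 genes in 6 lists for the 3 comparisons, with filled red points for an adjusted p under 0.05 and names for called genes with an absolute log2 fold change of at least 0.7. Itgb2, Lgals3 and Ctss are filled for old minus young controls, and Itgb3 and Itga5 lie to the right and Itgb6 to the left for vutiglabridin minus old controls.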

How the data were processed

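Per the labels' protocols, TRIzol was used to isolate RPE RNA, of which 0.5 µg went into each stranded total RNA library. Per the submitters' processing notes, the authors used Bowtie2 2.3.4.1, featureCounts 1.6.0 and DESeq2 with GRCm38. The deposited table holds raw counts and FPKM for 40202 genes and 9 libraries, per the file headers. Dividing the counts by the whole gene span and the library total gives the authors' FPKM in 100% of values (relative tolerance 1e-06). Gene coordinates are the deposited ones: they carry chromosome versions of GRCm39, and 848 of 38729 genes matched by symbol share a start with GRCm38.p6. Promoter windows are RefSeq's on GRCm38.p6. No coordinate was converted. Counting appears not to have used strand, so overlapping genes cannot be told apart.

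The deposited counts were tested with edgeR 4.0.16 in R 4.3.3 (quasi-likelihood, robust, TMM, filterByExpr, 25273 genes), with all 9 libraries in 1 fit, no covariate, and Benjamini-Hochberg adjustment over all genes. A standard error is the absolute log2 fold change over the square root of F. The scripts were tested on simulated counts. Replicates of a group differed beyond counting noise, so none was counted as a duplicate. Alternatives were RLE size factors, library totals, scaling to the RPE markers, other filters, DESeq2 1.42.0, limma-voom 3.58.1, only the 2 groups compared, a replicate block, a rod marker covariate, an adjusted p under 0.1, and each library left out. A fit without both libraries that stand apart was chosen after seeing the data.

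The members and lists were chosen with earlier results of these data known. All 10 members are named. From each list, up to 4 called genes of smallest p per comparison are named, or the 1 gene of smallest p where none was called. The genes most like Mertk are the 3 of highest Pearson r.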

Additional observations from a re-analysis of the deposited data

How the results depend on the processing

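Each member had at least 2718 reads in every library except Tub, at 190 to 569 reads, and Tulp1, at 29 to 351 reads, for which counting error was largest. Over the alternatives, member log2 fold changes kept direction and side of the threshold in 522 cases, gained a call in 30, lost one in 14 and turned direction in 34. The cause was not tested for any of these.

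With age, 1 member was called. The count was 2 with library totals alone, scaling to the RPE markers, DESeq2, only the 2 groups compared, both libraries that stand apart left out, or an adjusted p under 0.1, and 4 with limma-voom. It ranged from 0 to 2 when 1 library was left out. Between treated and old mice, none was called in the edgeR fit reported above. The count was 1 with RLE size factors, no filter, a filter of 1 CPM or more in 3 libraries, DESeq2, or an adjusted p under 0.1, 2 with limma-voom, and 3 with scaling to the RPE markers. It ranged from 0 to 2 when 1 library was left out. Between treated and young mice, 4 were called, 8 with scaling to the RPE markers, and 3 to 5 when 1 library was left out. Scaling to the RPE markers called 693, 1679 and 10507 of all 25273 genes in the 3 comparisons. Gas6 was the gene gained between treated and old mice with RLE size factors, both filters and DESeq2 (adjusted p 0.00445 to 0.0463).

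Some log2 fold changes turned direction. With age, Pros1 was -0.0042 with RLE size factors and DESeq2, -0.0121 with the 1 CPM filter and -0.0451 with limma-voom, Itgav was 0.0134 with scaling to the RPE markers, and Mertk was -0.0304 without both libraries that stand apart. Between treated and old mice, Myo7a was 0.0385 with scaling to the RPE markers, and Tub was -0.2399 and Tulp1 -0.083 with the rod covariate. Between treated and young mice, Itgav was 0.0097 with RLE size factors and DESeq2, 0.01 with the 1 CPM filter, 0.0994 with limma-voom, 0.1146 with the rod covariate and 0.4825 with scaling to the RPE markers. Tub was -0.1565 with the rod covariate, and scaling to the RPE markers gave 0.3354 for Myo7a, 0.1298 for Elmo2, 0.0644 for Rab27a and 0.0637 for Cst3.

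Leaving out 1 library turned direction within these ranges: with age, Mertk -0.0306 to 0.0844, Pros1 -0.0708 to 0.0852, Tub -0.1551 to 0.5167 and Myo7a -0.0185 to 0.0917; between treated and old mice, Itgav -0.0447 to 0.4605 and Tub -0.169 to 0.3455; between treated and young mice, Itgav -0.2841 to 0.2211 and Tub -0.0896 to 0.6639. Same-numbered libraries did not deviate together (correlations -0.0795 to 0.148), and not every library correlated best with its own number. No pairing by number was seen, though this check cannot exclude that same-numbered libraries were handled together. A replicate block called 1, 0 and 3 members and 322, 317 and 3587 genes in all, compared with 424, 1098 and 4222 without it. Of the other alternatives, counts over all genes ranged from 73 to 2078, from 25 to 4092 and from 1041 to 10507. Counts over the 62 related genes ranged from 1 to 10 with age, from 0 to 13 between treated and old mice and from 6 to 47 between treated and young mice.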

Other observations

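Among 14270 genes with a mean of at least 5 CPM, the 3 whose level followed that of Mertk most closely over the 9 libraries were Myo5a, Gm52706 and Gm52209, with Pearson r of 0.985, 0.971 and 0.967 and Spearman rho of 0.9, 0.933 and 0.65 in log2 CPM. The libraries share their groups and their RPE share, so these values are a description. Myo5a, the gene of the melanosome motor myosin Va, was at 646.7, 690.1 and 729.2 CPM in young controls, 677, 671.8 and 681.9 CPM in old controls, and 867.3, 692.1 and 746 CPM in treated mice. As for Mertk, treated replicate 1 was highest and young control replicate 1 lowest. Gm52706 and Gm52209 were at 13.6 and 13.9 CPM in treated replicate 1, compared with 5.09 to 6.68 and 5.84 to 8.55 CPM in the other libraries. Without treated replicates 1 and 3, the 2 libraries farthest from the median of Mertk, r was 0.894 for Myo5a, 0.813 for Gm52706 and 0.752 for Gm52209 over 7 libraries.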
